A study of Mus musculus with 18 samples.

Results

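RNA-seq of Arrested and PAt cells compares a pair of CD4+ T cell populations that were sorted for low (PAt) or no (Arrested) fluorescence of the new form of a Foxp3 reporter, and for fluorescence of its older form. The comparison used 6 of the 18 libraries of the series, 3 from PAt cells and 3 from Arrested cells, and 13190 genes of the 15402 in the table, those with a mean deposited value of at least 3 over all 18 libraries. All cells came from female C57/BL6 Foxp3Timer Foxp3-IRES-GFP mice, in which a Foxp3-driven fluorescent Timer protein reports transcription of the gene and GFP marks cells that express it. Every group, the controls included, received 3% oxazolone, a contact sensitiser, on the abdominal skin, and the draining inguinal and axillary lymph nodes were taken on day 5 and pooled within each of the 3 biological replicates. No untreated animals were analysed here. PAt cells (CD4+ GFP+, labelled as mature Foxp3 expressers and named a quiescent Treg population in the design) were sorted with low Timer-Blue and high Timer-Red fluorescence. Arrested cells (CD4+ GFP+, labelled as decaying Foxp3 expressers) were sorted without Timer-Blue and with intermediate Timer-Red. The other 4 populations of the series were CD44lo Timer- naive cells (Tnaive), CD44hi Timer- effector cells (Teff) and 2 Timer-Blue+ populations with persistent Foxp3 transcription (Pers1 and Pers2), and they share the fit but not the contrast.

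Foxp3 is the transcription factor that defines regulatory T cells (Treg), and it acts together with other factors to hold a Treg signature that includes the high-affinity IL-2 receptor, the Ikaros family members Helios and Eos, and surface molecules used in suppression. IL-2 signals through STAT5, which induces feedback inhibitors such as Cish and Socs2. Timer protein is blue when made and then turns irreversibly to a stable red form, so cells without blue and with decaying red are taken not to have transcribed the reporter recently. By the reporter, the sort separates cells with some recent activity of the Foxp3 promoter (PAt) from cells with none detected (Arrested), and the question of the comparison is which genes differ between them. The sort rests on the reporter and not on the Foxp3 mRNA, whose values are given below.

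The values are the log2 expression values that the authors deposited, one per gene and library, and every difference below is Arrested minus PAt on that log2 scale, fitted with limma. All 10 T cell markers were measured. Their summed level lay between 17.24 and 17.32 in the PAt libraries and between 17.38 and 17.43 in the Arrested libraries. Both ranges lay below that of the other populations of the series, whose libraries ran from 17.45 to 17.74. Markers of B cells lay between 12.56 and 12.84 in PAt and between 12.27 and 12.50 in Arrested over 13 genes. The 13 dendritic cell markers ran from 13.45 to 13.86 in PAt and from 13.23 to 13.45 in Arrested. None of the B cell or dendritic cell markers passed the test, although Itgax did without the 2 libraries doubted below. The median difference was -0.27 for the B cell and -0.24 for the dendritic cell markers, against -0.01 over all tested genes. All Arrested libraries lay below all PAt libraries in 6 of the 13 B cell and 3 of the 13 dendritic cell markers. This held for 10.1% of all tested genes, and no marker of either list lay wholly above. Over the 14 macrophage or monocyte markers the sum ran from 13.33 to 13.40 and from 13.14 to 13.27, which is nearly the level of Ctss alone (from 13.20 to 13.31 in PAt and up to 13.16 in Arrested). Ctss fell (-0.20, lost without the doubted libraries at an adjusted p = 0.1) and Itgam rose, and the median difference of the 11 tested members was -0.01. The sum of 7 stroma and endothelium markers, from 12.47 to 12.68 in PAt and from 12.74 to 12.88 in Arrested, is nearly that of Pecam1, which rose (0.23, lost without the doubted libraries at an adjusted p = 0.17), while the median of the 5 tested was -0.04. Of the 10 NK and CD8 T cell markers Klrb1c rose by 0.71, also without the doubted libraries (0.80, adjusted p = 0.0037), and the sums overlapped, from 10.97 to 11.09 and from 10.86 to 11.10. The 3 neutrophil markers summed to 5.31 to 5.56 in PAt and 5.17 to 5.22 in Arrested, with Camp and Ltf at the bottom of the measured range and Csf3r not passing. The part of these markers in the results below was not tested. In bulk samples, fewer cells of a type and less RNA per cell cannot be told apart.

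A pair of libraries stood apart. PAt 1 carried salivary gland transcripts, with a summed level of 11.06 over 12 genes against 7.48 to 8.51 in the other 5 libraries. Smr3a, a salivary secretory protein gene, was at 10.22 there and between 3.32 and 4.85 elsewhere. Arrested 2 had the ribosomal precursor Rn45s at 18.58, against 14.35 to 15.71 in the other 5, and Lars2, a mitochondrial tRNA synthetase gene, at 16.25 against 12.82 to 13.43. Counts of the lists below are also given without these 2 doubted libraries where they moved, and shares of a list stand against 2.07% of all tested genes higher and 2.97% lower in Arrested.

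**Figure D1:**
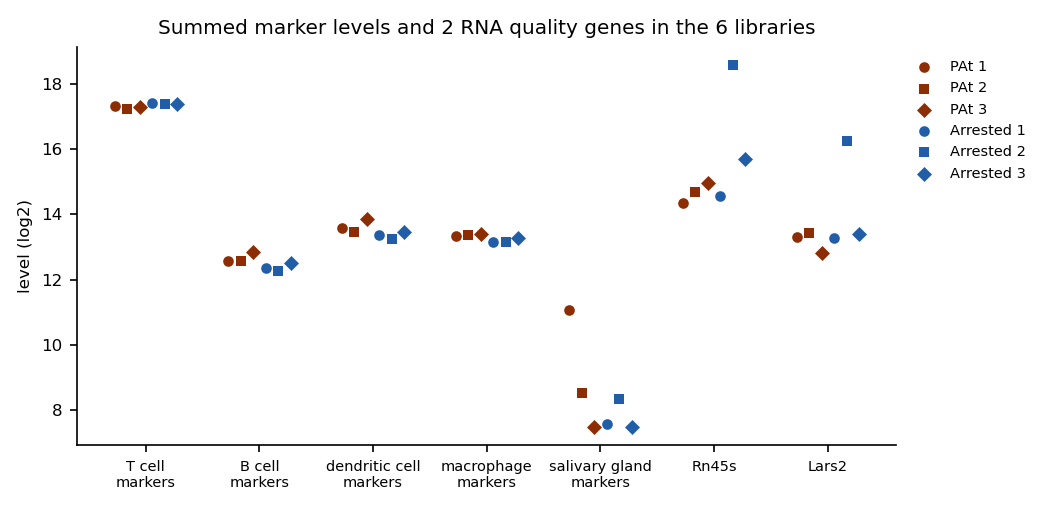
Summed log2 level of marker lists, and the log2 values of Rn45s and Lars2, in each of the 6 libraries (symbols distinguish replicate 1, 2 and 3 of PAt and Arrested). PAt 1 stands apart for salivary gland markers at 11.06 and Arrested 2 for Rn45s at 18.58 and Lars2 at 16.25, while the T cell markers of the 6 libraries lie between 17.24 and 17.43.

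Arrested and PAt cells had close profiles with a small set of clear differences. Genes were called where the adjusted p was under 0.05 and the difference exceeded 1 in either direction. This held for 16 genes (0.121% of those tested), 6 higher (0.0455%) and 10 lower (0.0758%) in Arrested, and in all 16 the 3 libraries of one group did not overlap those of the other. At an adjusted p under 0.05 without a size threshold, 665 genes passed (5.04%), of which 273 were higher (2.07%) and 392 lower (2.97%) in Arrested. When each library was shifted to the same median, 375 were higher and 326 lower. The differences that passed were mostly small, with a median absolute size of 0.42 and 436 of the 665 under 0.5. Groups did not overlap in 2370 genes, 1034 with Arrested above (7.84%) and 1336 with Arrested below (10.1%), and 648 of the 665 were among them. The mean Euclidean distance between a PAt and an Arrested library was 29.3, against 23.2 among PAt and 27.3 among Arrested libraries, an exact one-sided permutation p of 0.1, which is the smallest possible with 3 libraries a group. Without PAt 1 and Arrested 2, 18 genes were called, 15 of them among the 16, and 263 passed, 121 higher and 142 lower.

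**Figure D2:**
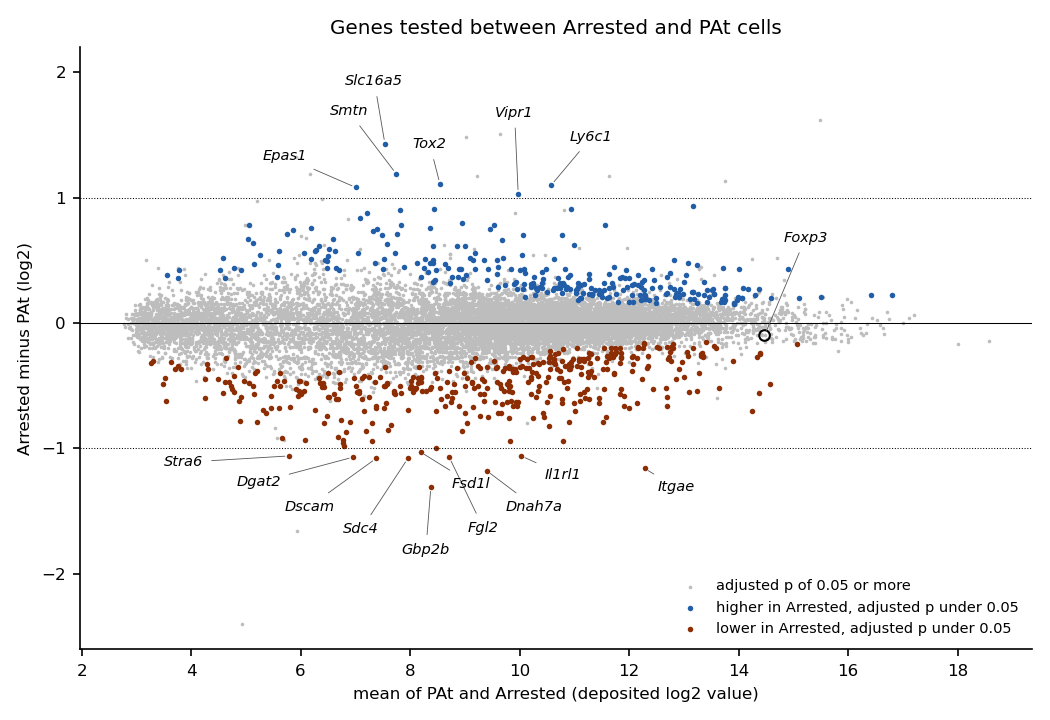
Difference between Arrested and PAt (log2, vertical axis) against the mean level of both groups (deposited log2 value, horizontal axis), with one point per tested gene with a valid symbol and dotted lines at 1 and -1. The 16 called genes and Foxp3 are named, with Slc16a5 at 1.43 the highest and Gbp2b at -1.31 the lowest of the called genes, and with Foxp3 close to 0 at -0.10.

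Foxp3 mRNA itself did not pass the test. Foxp3 measured 14.57, 14.36 and 14.65 in the PAt libraries and 14.45, 14.41 and 14.40 in the Arrested libraries. The groups overlapped, and the difference was -0.10 (SE 0.07, adjusted p = 0.45), with an exact two-sided permutation p of 0.4 over the 6 libraries, where 0.1 is the smallest possible. For comparison, the mean was 14.61 (SD 0.07, n = 3) in Pers1 and 14.82 (SD 0.02) in Pers2, and 11.34 (SD 0.06) in Tnaive and 10.54 (SD 0.14) in Teff. The gene lies at chrX:7573644-7595245 in mm10, where Ppp1r3f and Ccdc22 overlap it on the opposite strand, and the sources used here do not say whether reads were counted by strand.

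Most genes of the Treg signature fell in Arrested cells, although Foxp3 did not pass. Of 24 Treg identity genes, all tested, 19 fell and none rose (79.2% against 2.97% of all genes tested), with a median difference of -0.55 against -0.01 over all tested genes. All 3 Arrested libraries lay below all 3 PAt libraries in 20 of the 24. The list was drawn up with earlier results of these data known. Without PAt 1 and Arrested 2, 13 of the 24 were lower and none higher, with a median of -0.53, and Gpr83, Plagl1, Itgb8, Lrrc32, Nt5e and Capg no longer passed. The 5 members that did not pass were Foxp3, Ctla4 (-0.33, adjusted p = 0.41), Rgs1 (-0.60, adjusted p = 0.18), Izumo1r (-0.25, adjusted p = 0.13) and Nrp1 (-0.23, adjusted p = 0.13).

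The largest fall of the list was that of Itgae, the CD103 integrin chain that pairs with beta 7 to bind E-cadherin. Itgae measured 12.73, 12.82 and 13.06 in the PAt libraries and 11.78, 11.61 and 11.73 in the Arrested libraries. All Arrested values lay about a whole log2 unit under the PAt values, with a difference of -1.16 (SE 0.08, adjusted p = 2.7e-08). Itgae spans chr11:73090583-73147446, and Gsg2 (Haspin), a histone kinase gene, sits inside it on the opposite strand. Gsg2 also fell (-0.94, adjusted p = 8.8e-06), and with strand use unknown the reads of the pair cannot be told apart.

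The transcription factor genes of the list other than Foxp3 fell as well. Ikzf2, which encodes Helios, was at 14.64, 14.79 and 14.55 in PAt and at 14.12, 14.05 and 14.14 in Arrested, a difference of -0.56 (SE 0.08, adjusted p = 0.00016). Ikzf4, which encodes Eos, was at 12.52, 12.43 and 12.45 in PAt and at 11.96, 11.87 and 11.66 in Arrested (-0.64, adjusted p = 0.0003). Neither gene had overlapping groups. Plagl1, a zinc finger factor gene, fell by 0.76 (adjusted p = 0.011), and the orphan receptor gene Gpr83 fell by 0.79 (adjusted p = 0.005). Lrrc32, which encodes the TGF-beta anchor GARP, measured 14.06, 13.83 and 13.83 in PAt and 13.64, 13.47 and 13.07 in Arrested (-0.52, adjusted p = 0.011), and Itgb8, the integrin chain that activates latent TGF-beta, measured 9.05, 8.94 and 8.92 against 8.51, 8.25 and 8.18 (-0.66, adjusted p = 0.018). The ectoenzymes that turn ATP into adenosine fell too, with Entpd1 (CD39) at -0.63 (adjusted p = 0.00041) and Nt5e (CD73) at -0.31 (adjusted p = 0.005). Penk, Cd83, Ecm1, Swap70 and Capg were the other members that fell, from -0.26 to -0.62.

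**Figure D3:**
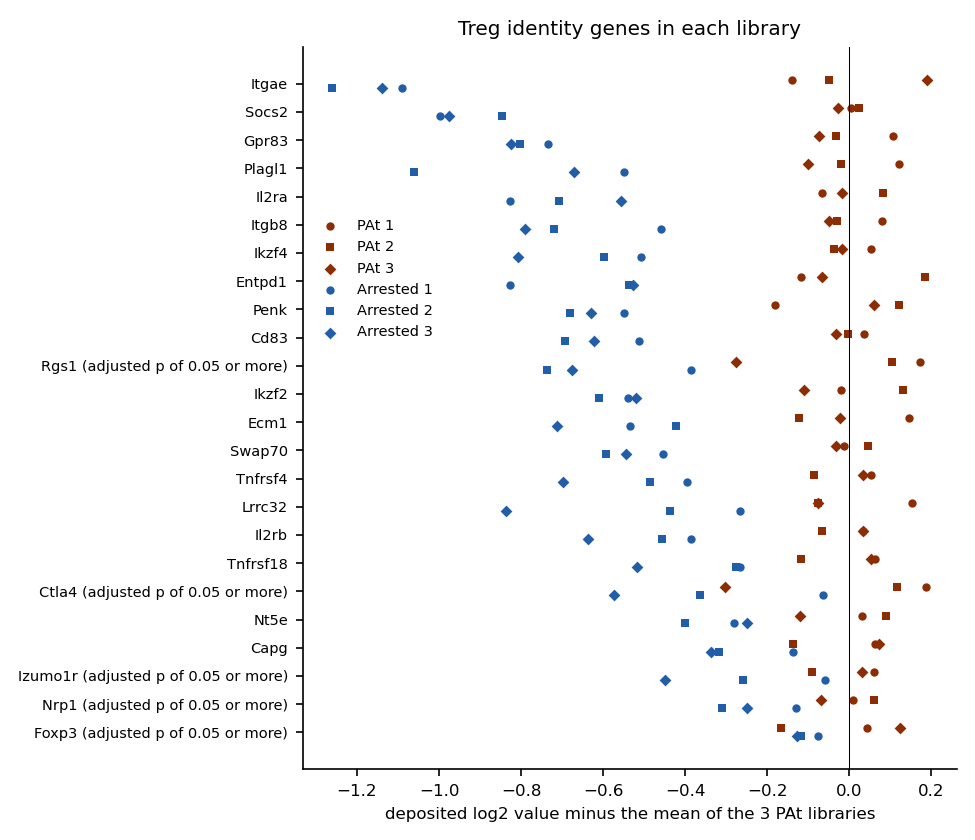
The 24 Treg identity genes in each of the 6 libraries, as the deposited log2 value minus the mean of the 3 PAt libraries (horizontal axis, red for PAt and blue for Arrested, symbols for the replicates). Blue points lie to the left of the red ones without overlap in 20 of the 24 rows, by -1.16 on average for Itgae and -0.94 for Socs2, whereas those of Foxp3 at the bottom overlap.

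Components of IL-2 signalling were among the genes that fell. Il2ra, the IL-2 receptor alpha chain CD25, measured 14.52, 14.67 and 14.57 in PAt and 13.76, 13.88 and 14.03 in Arrested. The groups were apart in every library, with a difference of -0.70 (SE 0.10, adjusted p = 0.00015). Il2rb, the beta chain, measured 14.86, 14.76 and 14.86 in PAt and 14.44, 14.37 and 14.19 in Arrested (-0.49, SE 0.07, adjusted p = 8.5e-05). Of 22 genes of the STAT and SOCS list, 3 fell (13.6% against 2.97% of all genes tested) and none rose, and these were the cytokine feedback inhibitors Socs2, Cish and Socs5. Jak1, Jak3, Stat5a and Stat5b are on the same list and did not pass. Socs5 (-0.28) was lost without the 2 doubted libraries (adjusted p = 0.13), which left 2. Socs2 was at 11.27, 11.29 and 11.24 in PAt and at 10.27, 10.42 and 10.29 in Arrested (-0.94, SE 0.09, adjusted p = 3.1e-06), and Cish at 13.08, 12.85 and 13.01 against 12.50, 12.47 and 12.22 (-0.59, SE 0.09, adjusted p = 0.00062). Both feedback genes kept the groups apart.

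The Cish promoter is shown because the gene is a known target of STAT5, whose binding element has the form TTCNNNGAA (a GAS element). The sequence, from RefSeq on GRCm38.p6, holds 250 bases before the start and 50 after it, and capitals mark matches to those letters on either strand.
Cish promoter, chr9:107296409-107296708, + strand: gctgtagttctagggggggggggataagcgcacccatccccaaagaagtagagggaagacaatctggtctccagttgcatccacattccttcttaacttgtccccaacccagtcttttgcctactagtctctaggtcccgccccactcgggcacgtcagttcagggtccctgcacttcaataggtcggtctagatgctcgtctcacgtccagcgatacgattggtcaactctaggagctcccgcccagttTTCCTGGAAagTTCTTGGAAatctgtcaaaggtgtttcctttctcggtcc
It held 2 matches, side by side near the start site. Over the 27025 promoters of the same length that were searched, 8.47% held at least 1 match. The search took 1 promoter per gene symbol and left out 1 chromosome. Among the 9938 promoters of tested genes the share was 7.24%. It was 8.91% of 303 for genes lower in Arrested and 3.11% of 193 for genes higher in Arrested. A match is a description of letters and not of binding.

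Other cytokine receptors moved in both directions. Of 34 tested cytokine receptor genes, 8 fell (23.5%) and 4 rose (11.8%), and without the 2 doubted libraries 4 fell and 2 rose. Il1rl1, which encodes the IL-33 receptor ST2, was called: it measured 10.29, 10.64 and 10.76 in PAt and 9.50, 9.44 and 9.56 in Arrested (-1.06, SE 0.12, adjusted p = 1.6e-05). Il1r2, the decoy receptor for IL-1, fell by 0.54 (adjusted p = 0.0031), and the TGF-beta receptor Tgfbr1 fell by 0.58 (adjusted p = 4.8e-05). The remaining members that fell were Il7r (-0.45), Ifngr1 (-0.28) and Il10ra (-0.23). On the other side were Tgfbr3 (0.45, adjusted p = 0.013), the IL-6 receptor Il6ra (0.33, adjusted p = 0.0022), Il4ra (0.28, adjusted p = 0.0057) and Il17ra (0.19, adjusted p = 0.015).

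A cluster of guanylate-binding protein (GBP) genes held the lowest difference among the genes that passed. GBPs are large GTPases that interferon induces and that act against intracellular microbes. Gbp2b (chr3:142594847-142619179 in mm10) measured 8.97, 9.11 and 9.03 in PAt and 7.51, 7.88 and 7.79 in Arrested. Every Arrested library was more than 1 log2 unit under every PAt library, and the difference was -1.31 (SE 0.11, adjusted p = 6.4e-07). Its neighbour Gbp3 was at 11.32, 11.56 and 11.58 in PAt and at 10.78, 10.83 and 11.05 in Arrested (-0.60, SE 0.08, adjusted p = 6.3e-05). Gbp5 was at 11.52, 11.65 and 11.55 against 11.10, 11.08 and 11.23 (-0.43, SE 0.08, adjusted p = 0.0028). The 3 genes fell without overlap between the groups, and Gbp7 (-0.26, adjusted p = 0.16) and Gbp2 (-0.20, adjusted p = 0.27), which lie in the same stretch of chromosome 3, did not pass. These were the only 3 of 58 interferon-stimulated and GBP genes to pass (5.17% lower, none higher), and the list's median was 0.08. The same 3 passed without the 2 doubted libraries, and with the replicate number as a block 6 of the 58 fell and 4 rose. Irf1 (0.10) and Ifit1 (0.07), which interferons induce widely, had adjusted p-values of 0.41 and 0.92. GBP genes are similar in sequence, so how the counting split their reads could affect the values of single members.

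The 5 genes lie head to tail on the + strand, and their promoters are shown in that order (RefSeq, GRCm38.p6, 250 bases before and 50 after the start). Capitals mark matches to a short form of the interferon-stimulated response element (ISRE), which is GAAA, any 2 bases and GAAA again, on either strand.
Gbp5 promoter, chr3:142496684-142496983, + strand: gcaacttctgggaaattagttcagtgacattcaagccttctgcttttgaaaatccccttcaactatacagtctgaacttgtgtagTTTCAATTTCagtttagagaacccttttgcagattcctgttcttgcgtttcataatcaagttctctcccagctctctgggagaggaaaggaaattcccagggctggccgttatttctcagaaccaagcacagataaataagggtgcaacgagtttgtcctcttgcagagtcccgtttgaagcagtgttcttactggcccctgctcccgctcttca
Gbp7 promoter, chr3:142530086-142530385, + strand: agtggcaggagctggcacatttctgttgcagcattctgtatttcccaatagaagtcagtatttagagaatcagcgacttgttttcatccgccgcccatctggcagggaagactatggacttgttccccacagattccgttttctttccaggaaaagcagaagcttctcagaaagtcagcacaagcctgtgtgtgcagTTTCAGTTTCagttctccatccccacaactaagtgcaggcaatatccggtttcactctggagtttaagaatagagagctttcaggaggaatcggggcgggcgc
Gbp3 promoter, chr3:142559794-142560093, + strand: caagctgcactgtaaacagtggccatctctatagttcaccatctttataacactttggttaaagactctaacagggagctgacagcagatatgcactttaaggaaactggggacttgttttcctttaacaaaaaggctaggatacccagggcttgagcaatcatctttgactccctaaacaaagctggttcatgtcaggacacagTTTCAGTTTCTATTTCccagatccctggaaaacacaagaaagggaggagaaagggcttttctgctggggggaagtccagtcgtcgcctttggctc
Gbp2b promoter, chr3:142594597-142594896, + strand: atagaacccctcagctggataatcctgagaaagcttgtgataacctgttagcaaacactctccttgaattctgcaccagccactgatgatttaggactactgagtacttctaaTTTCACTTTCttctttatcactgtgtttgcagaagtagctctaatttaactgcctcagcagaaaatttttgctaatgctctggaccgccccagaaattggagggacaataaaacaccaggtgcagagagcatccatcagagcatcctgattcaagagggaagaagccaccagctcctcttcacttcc
Gbp2 promoter, chr3:142620413-142620712, + strand: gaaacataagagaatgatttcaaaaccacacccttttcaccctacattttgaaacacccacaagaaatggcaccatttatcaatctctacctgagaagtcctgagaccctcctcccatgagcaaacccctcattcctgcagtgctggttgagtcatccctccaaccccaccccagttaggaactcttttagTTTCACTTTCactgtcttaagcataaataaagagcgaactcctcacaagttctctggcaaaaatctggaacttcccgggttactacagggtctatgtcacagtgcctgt
All 5 held a match, and the 2 matches of Gbp3 overlap each other. The element was thus found in members that fell and in members that did not pass. Of all 27025 promoters searched 3.49% held a match, and of the 9938 of tested genes 3.08% did. So did 61.5% of the 39 promoters found for the interferon-stimulated and GBP list. The share was 4.29% of 303 promoters of genes lower in Arrested and 1.04% of 193 of genes higher in Arrested. The promoters were chosen for printing after the values of their genes were seen.

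Effector molecules of Treg fell in part. Of 33 effector Treg genes, 8 fell (24.2%) and 3 rose (9.09%), with a median of -0.02, and without the 2 doubted libraries 4 fell and 3 rose. Fgl2, a secreted suppressive molecule, measured 9.13, 9.26 and 9.38 in PAt and 8.23, 7.97 and 8.34 in Arrested. The gap between the groups was wider than the spread within either, with a difference of -1.07 (SE 0.12, adjusted p = 8.8e-06), and Ccdc146 overlaps the gene on the opposite strand. Gzmb, the granzyme B protease, was at 8.25, 7.99 and 7.86 in PAt and at 7.08, 6.87 and 7.60 in Arrested (-0.85, SE 0.17, adjusted p = 0.005). Arrested 3 lay closest to PAt, and Gzmb did not pass without PAt 1 and Arrested 2 (adjusted p = 0.14). Klrg1, a receptor of terminally differentiated cells, had a mean of 8.05 (SD 0.05, n = 3) in PAt and 7.24 (SD 0.09) in Arrested, with no overlap (-0.81, SE 0.11, adjusted p = 0.00016). Il1rl1, described above, fell, as did Ccr8, Ebi3, Tnfrsf9 and Tnfrsf1b, these last from -0.40 to -0.62. Ccr8, Ebi3 and Tnfrsf9 did not pass without the 2 doubted libraries. The 3 that rose were Ly6c1 (1.10), Ly6a (0.62, adjusted p = 0.0013) and S100a6 (0.52, adjusted p = 0.0015). All 3 also passed without the doubted libraries. Il10 was at 7.08, 6.94 and 6.56 in PAt and at 6.68, 6.04 and 6.44 in Arrested, and this difference did not pass (-0.48, adjusted p = 0.16).

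Among suppressive mediators, a partly shared list, the members that passed all fell. Of 23 tested members 9 fell (39.1%) and none rose, with a median of -0.33, but without the 2 doubted libraries 3 fell. With the replicate block 12 fell and 2 rose. All Arrested libraries lay below all PAt libraries in 12 members and above in 4, against 10.1% and 7.84% of all tested genes. Prf1 was among the 4, at 7.45, 7.45 and 7.57 in PAt and at 7.60, 8.08 and 8.12 in Arrested. Pdcd1lg2, which encodes the PD-1 ligand PD-L2, measured 9.62, 9.70 and 9.62 in PAt and 9.04, 8.84 and 8.85 in Arrested (-0.74, SE 0.12, adjusted p = 0.00074). The remaining members that fell were Fgl2, Gzmb, Itgb8, Entpd1, Ebi3, Il1r2, Lrrc32 and Nt5e. Tgfb1 and Lag3 were among the members that did not pass.

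Costimulatory receptors were uneven. Of 24 genes of the TNF receptor superfamily, 5 fell (20.8% against 2.97% of all genes tested) and none rose, among them Tnfrsf4 (OX40), at 12.99, 12.85 and 12.97 in PAt and at 12.54, 12.45 and 12.24 in Arrested (-0.52, SE 0.08, adjusted p = 0.00055). Tnfrsf9 (4-1BB) had a difference of -0.60 (adjusted p = 0.0016), Tnfrsf8 (CD30) one of -0.51 (adjusted p = 0.021) and Tnfrsf18 (GITR) one of -0.36 (adjusted p = 0.0023). Without the 2 doubted libraries 3 of the 5 passed, and Tnfrsf9 (adjusted p = 0.07) and Tnfrsf8 (adjusted p = 0.23) did not. The CD28 family and checkpoint list had 4 of 23 lower (17.4% against 2.97%) and none higher, namely Klrg1, Pdcd1lg2, Cd200r1 and Cd86. Without the 2 doubted libraries 2 were lower, and Cd200r1 and Cd86 did not pass (adjusted p = 0.11 for each). Icos was at 13.03, 13.16 and 13.01 in PAt and at 13.17, 12.91 and 13.12 in Arrested, with a difference of 0.00 (adjusted p = 1), and Pdcd1 (0.23, adjusted p = 0.22) and Tigit (-0.27, adjusted p = 0.34) did not pass either.

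Other called genes that fell have no list of their own. Dnah7a, an axonemal dynein heavy chain gene, had a difference of -1.18, and its near-identical neighbour Dnah7b fell as well (-0.60, adjusted p = 0.00093), so reads could be split between them. Sdc4, a heparan sulphate proteoglycan, and Dscam, a neuronal adhesion molecule, both had -1.08, Dgat2, which makes triacylglycerol, -1.07, Stra6, a retinol transporter, -1.06, and Fsd1l -1.03. All had groups that did not overlap and adjusted p-values that held without the 2 doubted libraries.

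The genes that rose in Arrested cells were led by a transporter. Slc16a5, a member of the monocarboxylate transporter family, measured 6.48, 6.81 and 7.18 in PAt and 8.08, 8.30 and 8.39 in Arrested. The groups were well apart, with the highest difference among the genes that passed, 1.43 (SE 0.14, adjusted p = 1.5e-06). Of 12 tested genes of that family and its chaperones, 2 rose (16.7% against 2.07% of all genes tested) and none fell. The other that rose was the chaperone Emb (0.36, adjusted p = 0.0028). Slc16a1 and Slc16a3, the main lactate transporters of T cells, did not pass. Vipr1, a receptor for vasoactive intestinal peptide, was at 9.52, 9.35 and 9.51 in PAt and at 10.55, 10.55 and 10.36 in Arrested (1.03, SE 0.07, adjusted p = 2e-08). Epas1, which encodes the hypoxia factor HIF-2 alpha, was at 6.56, 6.31 and 6.55 against 7.66, 7.36 and 7.63 (1.08, SE 0.12, adjusted p = 1.4e-05). Ly6c1, a GPI-anchored surface protein, was at 9.92, 10.30 and 9.87 against 10.81, 11.28 and 11.29 (1.10, SE 0.13, adjusted p = 2.4e-05), and its near-identical paralog Ly6c2 rose by 0.47 (adjusted p = 0.04). Without PAt 1 and Arrested 2 the Ly6c1 difference was 0.97, which still passed but was no longer over 1. Smtn, a smooth muscle cytoskeletal gene, was at 7.37, 6.92 and 7.15 against 8.65, 8.20 and 8.16 (1.19, SE 0.20, adjusted p = 0.0008), and Tox2, described with the follicular genes, was the remaining called gene that rose. Below the threshold of 1, the next highest differences among the genes that passed were those of Als2cl, Fam101b (Rflnb), the phosphodiesterase gene Pde3b, Tmprss13, Stom, Arhgap29, Tspan9, Dapl1, Il4, Itgb3 and Myo6, from 0.93 to 0.78.

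Several genes of resting and naive T cells rose. Of 25 such genes 10 rose (40.0% against 2.07% of all genes tested) and 1 fell, with a median of 0.14, and without the 2 doubted libraries 6 rose and none fell. Tcf7, which encodes TCF-1, a factor of naive and memory T cells, measured 14.72, 14.64 and 14.68 in PAt and 15.10, 15.09 and 15.13 in Arrested (0.43, SE 0.05, adjusted p = 2.6e-05). Its relative Lef1 was at 12.62, 12.58 and 12.60 against 12.88, 12.86 and 12.93 (0.29, SE 0.05, adjusted p = 0.0014), and the chromatin organiser Satb1 at 13.53, 13.58 and 13.35 against 13.85, 13.93 and 13.99 (0.44, SE 0.05, adjusted p = 4.1e-05). All 3 factors had tight replicates and no overlap. Als2cl rose by 0.93 (adjusted p = 1.8e-06), although Tmie, which overlaps it on the opposite strand, rose as well (0.76, adjusted p = 0.0036), and Dapl1 rose by 0.78 (adjusted p = 0.0012). The remaining 5 were Igfbp4, Actn1, Pdlim1, Klf3 and the lymph node egress receptor S1pr1 (0.20, adjusted p = 0.027). The homing receptor Ccr7 (0.16, adjusted p = 0.29) did not pass. The IL-7 receptor Il7r fell, at 12.34, 12.58 and 12.46 in PAt and at 11.81, 11.91 and 12.30 in Arrested. Il7r did not pass without the 2 doubted libraries (adjusted p = 0.096).

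Some genes linked with follicular helper cells rose too. Of 25 tested genes 6 rose (24.0% against 2.07% of all genes tested) and 1 fell (4.00% against 2.97%), with a median of 0.20, and without the 2 doubted libraries 4 rose and none fell. Tox2 was at 8.28, 7.71 and 7.98 in PAt and at 9.29, 9.02 and 8.98 in Arrested (1.11, SE 0.17, adjusted p = 0.00045). Cxcr5, the receptor that guides T cells to follicles, was at 9.66, 9.68 and 9.79 against 10.49, 10.31 and 10.43 (0.70, SE 0.11, adjusted p = 0.00045). Gpr183, an oxysterol receptor that positions cells at the follicle border, was at 10.46, 10.39 and 10.42 against 11.24, 11.11 and 11.04 (0.70, SE 0.11, adjusted p = 0.00045). None of these 3 had overlapping groups, and Cebpa (0.57), Pou2af1 (0.37) and Il6ra (0.33) made up the rest. The defining factor of these cells, Bcl6, was at 10.39, 10.28 and 10.43 in PAt and at 10.81, 10.49 and 10.55 in Arrested, and did not pass (0.25, adjusted p = 0.12). Cxcr5 overlaps Bcl9l, and Gpr183 lies within Ubac2, each on the opposite strand.

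A minority of T cell receptor components rose, by small amounts. Of 32 genes of the TCR complex and proximal signalling, 8 rose (25.0% against 2.07%) and none fell, with a median of 0.06, but without the 2 doubted libraries 2 rose. Cd4 measured 14.51, 14.47 and 14.48 in PAt and 14.72, 14.67 and 14.69 in Arrested (0.20, SE 0.04, adjusted p = 0.003). Themis had the largest difference of the list (0.38, adjusted p = 0.014), and Pag1 (0.30), Lat (0.27), Cd247 (0.17) and Grap2 (0.16) were among the others that rose. The T cell marker sum, which holds Cd4 and Thy1, was higher in Arrested in every library, as given above. Of 32 tested transcripts that TCR signals induce early, only Myc (-0.34, adjusted p = 0.005) and Rgs16 (-0.64, adjusted p = 0.048) passed. Both were lower (6.25% against 2.97% of all genes tested). Without the 2 doubted libraries neither passed (Myc adjusted p = 0.084, and Rgs16 -0.26 with adjusted p = 0.59) and 1 gene, Egr3, rose (0.36, adjusted p = 0.038), while with the replicate block 6 fell and 1 rose. Nr4a1 was at 13.76, 13.38 and 13.42 in PAt and at 13.75, 13.38 and 13.18 in Arrested (-0.08, adjusted p = 0.85).

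Adhesion and migration genes exchanged members. The integrin list had 4 of 23 higher (17.4%) and 2 lower (8.70%), and without the 2 doubted libraries Itgax took the place of Itgb8 among the 2 that fell. Itgb3 was at 11.12, 11.16 and 11.23 in PAt and at 11.88, 11.93 and 12.03 in Arrested (0.78, SE 0.06, adjusted p = 3e-07), and Itgb1 at 13.72, 13.85 and 13.78 against 14.26, 14.03 and 14.34 (0.43, SE 0.08, adjusted p = 0.0023). Itga7 (0.50) and Itgam (0.49) rose as well, whereas Itgae and Itgb8 fell. Of 30 chemokine and migration receptors, 4 rose (13.3% against 2.07% of all genes tested) and 2 fell (6.67% against 2.97%), and without the 2 doubted libraries 2 rose and 1 fell, with Gpr18, S1pr1 and Ccr8 lost. The 2 that fell were Ccr6, at 10.19, 9.95 and 10.13 against 9.59, 9.35 and 9.45 (-0.63, SE 0.11, adjusted p = 0.0011), and Ccr8 (-0.62, adjusted p = 0.0042).

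Helper cell genes gave single hits. Il4 was close to the bottom of the measured range in PAt, at 4.70, 4.72 and 4.59, and at 5.32, 5.58 and 5.47 in Arrested (0.78, SE 0.14, adjusted p = 0.002). Cd40lg, the ligand with which helper cells activate B cells, rose from 9.97, 9.77 and 9.56 to 10.38, 10.29 and 10.27 (0.54, SE 0.09, adjusted p = 0.00093). Of 26 tested helper cytokines and TNF ligands these 2 rose (7.69% against 2.07% of all genes tested). Lta (-0.38) and Tnfsf10 (-0.37) fell (7.69% against 2.97%). Without the 2 doubted libraries Il4 and Cd40lg passed and the other 2 did not. Among 27 helper lineage factors 5 rose (18.5%), Tox2, Zbtb32, Tcf7, Lef1 and Zbtb7b. Only Ahr, the aryl hydrocarbon receptor, fell (3.70%), by 0.49 (adjusted p = 0.012). Without the 2 doubted libraries 4 of these rose, with Zbtb7b lost, and Ahr did not pass (adjusted p = 0.1). Gata3 had a difference of 0.02 (adjusted p = 0.94).

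Few genes of proliferation and basic metabolism passed. Of 40 cell cycle genes Cdc20 rose and Nusap1 and Top2a fell, and none of the 3 passed without the 2 doubted libraries. The median of the cell cycle list was -0.13, against -0.01 over all tested genes, and -0.05 without the doubted libraries. With the replicate block 5 cell cycle genes fell and 1 rose. Mki67, a marker of cycling cells, was at 11.73, 11.76 and 11.46 in PAt and at 11.76, 11.53 and 11.61 in Arrested (-0.02, adjusted p = 0.94). No member of the MHC class I (21 tested), cholesterol synthesis (23), heat shock (14) or respiratory chain (78) lists passed limma's test at an adjusted p under 0.05. Single members fell in the ribosomal protein (Rpl32, 1.22% of 82), glycolysis (Hk2, 5.00% of 20) and Bcl2 (Bcl2l1, 5.26% of 19) lists. The binding partners and regulators of Foxp3 had Satb1 higher and Gata1 lower of 28 (3.57% each). Of these only Satb1 passed without the 2 doubted libraries, where Rpl36a was the ribosomal protein gene that fell. The ribosomal protein list had a small median of -0.07, and of -0.11 without the doubted libraries. All Arrested libraries lay below all PAt libraries in 25 of its 82 genes and above in 1, against 10.1% and 7.84% of all tested genes. With the replicate block, 2 heat shock genes rose and 1 fell.

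**Figure D4:**
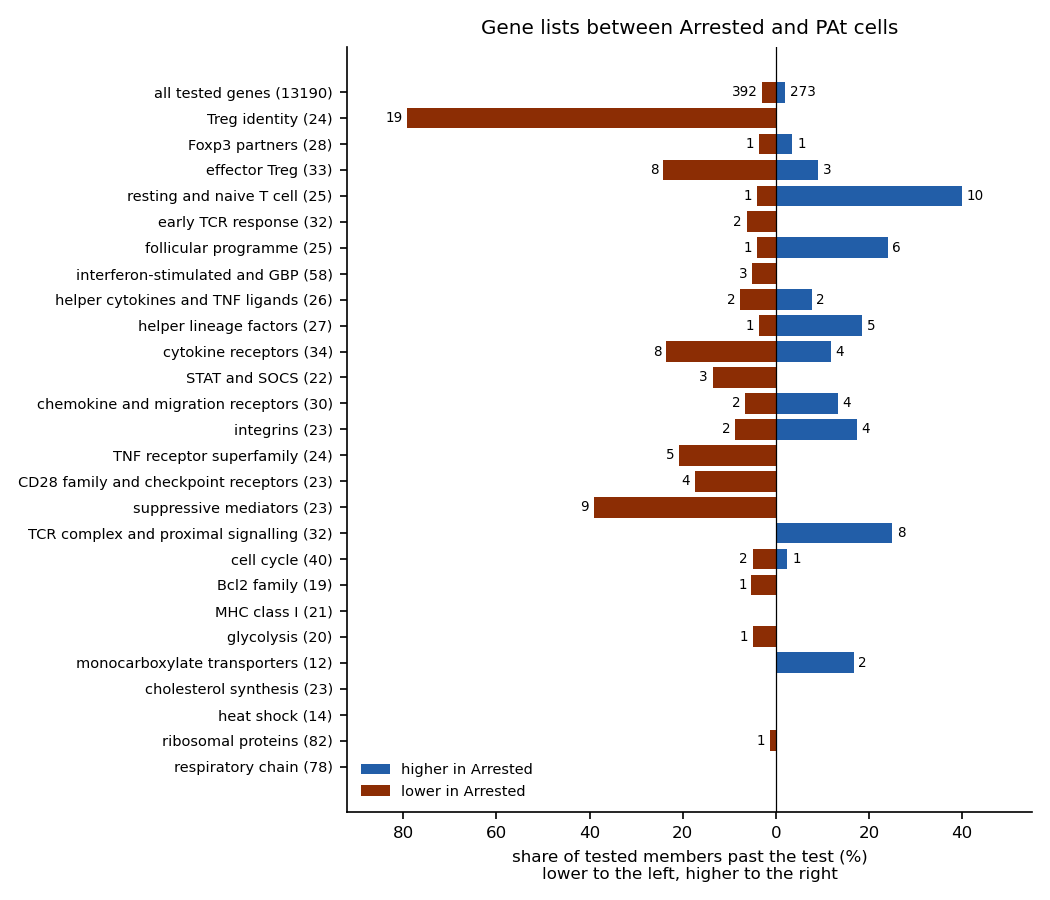
Share of the tested members of each list with an adjusted p under 0.05 (percent, horizontal axis), lower in Arrested to the left and higher to the right, with the number of genes beside each bar and the number tested in parentheses. The top row gives all 13190 genes, and the Treg identity list reaches 79.2% on the left and the resting and naive list 40.0% on the right.

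The genes that separated Arrested from PAt were also examined in the 4 populations outside the contrast. Of the 392 genes lower in Arrested, 67.1% were higher in the Pers cells than in Teff and 14.8% lower, whereas over all tested genes these shares were 29.8% and 28.9%. Of the 273 genes higher in Arrested, 63.4% were lower in the Pers cells than in Teff. The 392 genes held 6.69% of all genes higher in Pers, and the 273 held 4.54% of all genes lower in Pers. Between Teff and Tnaive, 58.4% of the 392 were higher in Teff and 18.9% lower (all genes, 31.3% and 27.7%), and of the 273, 34.8% were higher and 48.0% lower. These contrasts share no library with PAt and Arrested, though the libraries come from the same series of pooled mice. All contrasts also share the estimate of the spread of each gene, so passing in one is not independent of passing in another.

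Single genes took different places along the populations. Itgae was highest in Pers2 at 15.12 (SD 0.05, n = 3) and lowest in Tnaive at 7.59 (SD 0.18), with Arrested at 11.70 (SD 0.09) between Teff at 10.70 (SD 0.07) and PAt at 12.87 (SD 0.17). Socs2 was at similar levels in Pers2 (11.22, SD 0.10) and PAt (11.27, SD 0.02), which did not differ beyond their spread. Gbp2b was highest in PAt at 9.04 (SD 0.07), followed by Arrested at 7.72 (SD 0.19), Pers2 at 7.49 (SD 0.18) and Pers1 at 7.18 (SD 0.05), and was at 4.81 in Tnaive and 4.83 in Teff. The ranges of mean and SD of Arrested and Pers2 overlapped for this gene. Slc16a5 ran from 11.04 (SD 0.04) in Tnaive to 5.44 (SD 0.02) in Pers2, with Arrested at 8.26 (SD 0.16) nearer to Teff (9.53, SD 0.10) than PAt was (6.82, SD 0.35). Ly6c1 was as high in Arrested (11.13, SD 0.27) as in Tnaive (11.03, SD 0.01) within the spread. Tox2 was highest in Teff at 11.33 (SD 0.19) and lowest in Tnaive at 5.95 (SD 0.36).

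**Figure D5:**
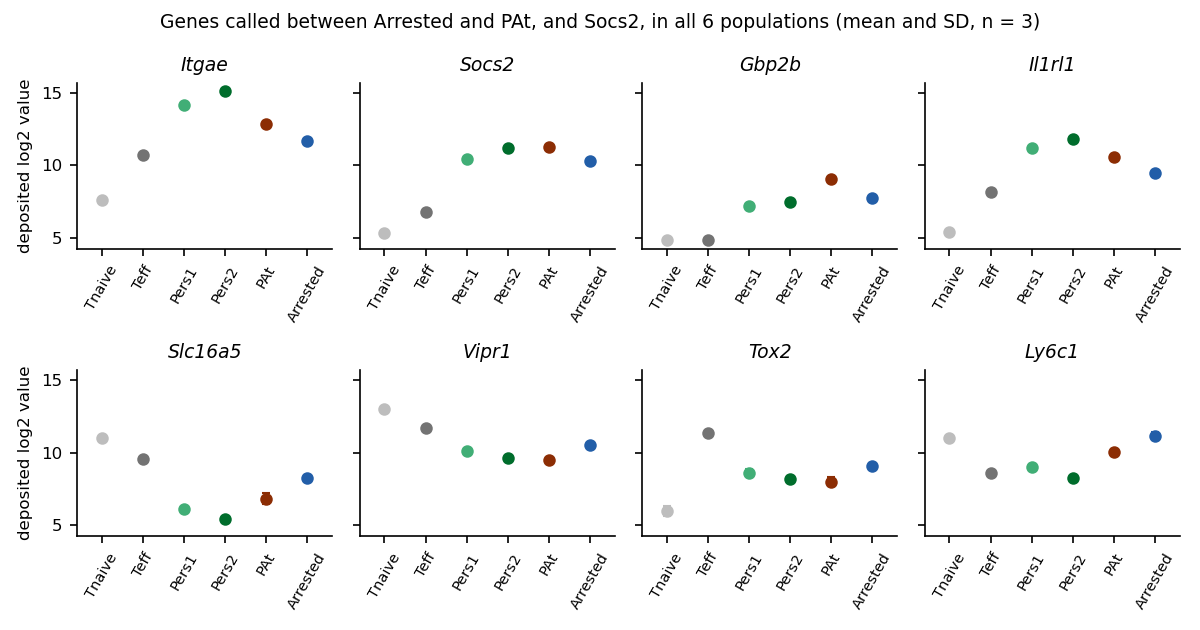
Mean and SD (n = 3 libraries) of 8 genes in the 6 populations, on the deposited log2 scale. The upper row shows genes lower in Arrested than in PAt, with Gbp2b peaking in PAt at 9.04 and Itgae in Pers2 at 15.12, and the lower row shows genes higher in Arrested, with Slc16a5 and Vipr1 highest in Tnaive and Tox2 in Teff.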

How the data were processed

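RNA of sorted CD4+ T cells was sequenced from a stranded mRNA kit, and per the submitters' processing notes CASAVA 1.8.2, FastQC 0.11.2, TopHat2 2.0.9, DESeq2 and the build mm10 were used. The authors deposited log2 values of normalised read counts for 15402 genes in 18 libraries, in the form of the regularised log of DESeq2, which draws the differences of low genes towards 0. The annotation, the counter and its use of strand are not given in the sources used here. The table holds no counts, so sequencing depth is unknown and no interval that needs it is given. Values ran from -0.02 to 18.89, with library medians from 8.96 to 9.16.

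From these values limma 3.58.1 (R 4.3.3) was fitted with trend to 6 group means over all 18 libraries (12 residual degrees of freedom) on 13190 genes with a mean of at least 3, leaving 2212 untested, and p-values were adjusted by Benjamini-Hochberg over all of them. Genes with an adjusted p under 0.05 passed, and those with an absolute log2 difference over 1 as well were called. Replicates are 3 libraries a group from pooled nodes; the labels do not say that a number marks the same pool in every group. The comparison, the gene lists and the doubted libraries were chosen with earlier results of these data known. Lists are described by counts and medians, with no test of a list. Genes were named by rule: Foxp3, the 15 highest and 15 lowest differences among genes that passed without overlap, and up to 3 each way per list. Other members of the lists, Gbp2, Gbp7, Dnah7b, Ly6c2, Tmie and the genes whose promoters are printed were named after their values were seen. Marker sums are log2 of summed linear values. On simulated data with 200 changed genes of 13190, 73.5% were recovered at a log2 difference of 0.5 and 98% at 1. Of the unchanged genes 5 and 12 passed. The simulated noise was independent between genes and equal in spread over libraries, so libraries that stand apart were not modelled. 22 symbols turned into dates were not named. Some genes of the lists are not reported here by name. Positions are from GENCODE on mm10, promoters from RefSeq (GRCm38.p6). Alternatives covered the libraries in the fit, filter, scaling, library weights, variance trend, block, thresholds and leaving out libraries.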

Additional observations from a re-analysis of the deposited data

How the results depend on the processing

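The 16 called and 665 passing genes were recomputed under 16 alternatives, and no gene of the 665 changed sign under any of them. With only the 6 PAt and Arrested libraries, 280 genes passed, and without both PAt 1 and Arrested 2, 263 did (240 of them among the 665). Leaving out each library in turn gave 12 to 26 called and 344 to 871 passing genes: 344 without Arrested 2, 366 without PAt 2 and 871 without Arrested 3, where 26 were called. The ratio of distances between and within groups ran from 1.09 to 1.26 over these fits. With a threshold of 0.5, 229 genes were called, and testing against a difference of 0.5 (limma treat) called 8, 3 higher and 5 lower, 7 of them among the 16. The threshold of 0.5 and the test against 0.5 change the criterion itself, and the cause of the other moves was not tested. Foxp3 never passed, with differences from -0.19 to -0.04. Of the 82 named genes that passed, 49 did so under every alternative and 33 did not pass under at least 1 (Ahr, Bcl2l1, Ccr8, Cd200r1, Cdc20, Gata1, Gpr18, Gpr83, Gzmb, Hk2, Igfbp4, Il4ra, Il7r, Itga7, Itgam, Itgb8, Lat, Lta, Maoa, Myc, Nusap1, Pag1, Rgs16, Rpl32, Socs5, Tgfbr3, Themis, Tnfrsf8, Tnfrsf9, Tnfsf10, Top2a, Tspan9 and Zbtb32). Hspa1b, which did not pass (0.52), had 1.13 without PAt 3 and changed sign to -0.07 without PAt 1 and to -0.18 without PAt 1 and Arrested 2. The Treg identity count ran from 13 (without both doubted libraries) to 21.

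The replicate numbers were not taken as pairs. Deviations from the group means correlated at 0.239, -0.0725 and -0.0742 for the same number, and PAt 2 with Arrested 3 at 0.319, so not every library correlated best with its own number. With the replicate block 17 genes were called and 935 passed, 664 of them among the 665, Hspa1b passed (adjusted p = 0.018), and the Foxp3 difference stayed at -0.10. Depth could not be judged from log2 values, and 3 libraries a group cannot reach an exact two-sided permutation p below 0.1.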

Other observations

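Several genes that fell in Arrested cells had their highest mean of all 6 populations in PAt. Among the 392 genes that were lower in Arrested, PAt was the highest population for 209 (53.3%, against 12.1% of all tested genes with a valid symbol), a share that the choice of genes itself favours. Among the 15 lowest differences this held for 10: Gbp2b, Dnah7a, Dscam, Fsd1l, Gsta4, Maoa, Sdc4, Selp, Stra6 and Trpm1. Selp, which encodes P-selectin, an adhesion molecule better known from platelets and endothelium, had means from 5.05 to 5.18 in Tnaive, Teff, Pers1 and Pers2, of 7.26 (SD 0.12, n = 3) in PAt and of 6.30 (SD 0.15) in Arrested (-0.96). Gsta4, a glutathione transferase, was at 8.98 (SD 0.06) in PAt, 7.98 (SD 0.21) in Arrested and 5.41 to 7.23 in the other 4. Trpm1, an ion channel, was at 7.77 (SD 0.22) in PAt and 6.83 (SD 0.22) in Arrested, against 5.46 to 6.35 elsewhere. Maoa, a monoamine oxidase, had a difference of -0.98 and did not pass under 7 of the 16 alternatives.

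In the opposite direction PAt was the lowest population for 104 of 272 genes higher in Arrested with a valid symbol (38.2%, against 11.3% of all). The choice of genes itself favours this share too. Epas1 was at 6.47 (SD 0.14) in PAt and 7.55 (SD 0.16) in Arrested, below the 8.86 to 9.29 of the other 4 populations. Itgam showed the same order, with 6.23 (SD 0.10) in PAt, 6.72 (SD 0.02) in Arrested and 8.16 to 8.88 elsewhere. Myo6, an unconventional myosin, and Ly6c1 were the 2 of the 15 highest differences with their highest mean in Arrested, Myo6 at 9.93 (SD 0.15) against 9.15 (SD 0.13) in PAt and 9.73 (SD 0.12) in Pers1.

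Hspa1b, an inducible heat shock gene, varied more among replicates than between the groups, with SDs of 1.19 in PAt and 0.95 in Arrested.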
